A study of Mus musculus with 6 samples.

Results

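Homeobox genes encode transcription factors that share a DNA-binding domain, the homeodomain, and set the position and identity of cells in the embryo. In the jaw and tooth, mesenchyme from the neural crest carries a combination of Dlx, Msx, Barx, Lhx, Prrx and Pitx factors that is laid down by signals from the overlying epithelium, and many of these genes stay active in the dental papilla and follicle after birth. Hox genes, the best known homeobox genes, pattern the trunk and hindbrain and are largely silent in the crest cells of the first branchial arch.

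A list of 40 homeobox genes of jaw and tooth mesenchyme was followed by gene symbol in the estimated gene counts, and 39 of these were among the 22287 genes of the count table. Alx1 was not analysed here. Of the 39, 38 were measured deeply enough to be tested, and Isl1, a LIM homeobox gene, was too low. RNA came from the apical end of the lower first molar, where the root forms, of C57BL/6 mice at postnatal day 7.5. The mutant group was Gli1-CreER;Arid1a fl/fl (3 libraries, replicates 3, 4 and 5), in which a tamoxifen-activated recombinase made by Gli1-expressing, Hedgehog-responsive cells cuts Arid1a, whose protein is part of the nucleosome-moving BAF complex. The control group was Arid1a fl/fl without Cre (3 libraries, replicates 2, 3 and 5). The treatment protocol, given for all samples, was an intraperitoneal injection of 1.5 mg of tamoxifen per 10 g of body weight in corn oil at postnatal day 3.5. CreER was carried by the mutants alone, so effects of the CreER allele and of Arid1a deletion cannot be told apart, and the labels say neither how the allele was built into or near Gli1 nor whether a library held 1 animal or several. P-values therefore measure the spread between these libraries, which may be technical in part.

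Library totals ran from 20453247 to 24255352 estimated counts. Levels are given as CPM, counts per 1000000 after scaling of the libraries by the TMM method, and differences as log2 fold changes of mutants minus controls from edgeR's quasi-likelihood test over all 17305 genes tested, called at an adjusted p under 0.05. Arid1a averaged 128 ± 7.36 CPM in mutants and 205 ± 3.96 CPM in controls (SD, n = 3 each) and was called lower (adjusted p = 0.0129), the direction that the genotype labels give. Amelx, an enamel matrix gene, took 4.13 to 6.44% of all counts in mutants and 10.7 to 18.2% in controls, so the tissue held enamel-forming epithelium beside the mesenchyme that the homeobox list is named for. In such bulk tissue, fewer cells of a type and less RNA per cell cannot be told apart.

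Of the 38 members tested, 3 rose in mutants, 1 fell and 34 did not pass. Prrx1, Six2 and Phox2a were higher and Satb1 was lower. Across all genes tested, 0.659% were called higher and 1.20% lower, or 1.86% either way. DESeq2 called 6 members higher and 1 lower, adding Alx4, Shox2 and Msx1, at 2.15% of genes higher, 2.97% lower and 5.13% either way. With libraries scaled to their totals alone, edgeR called 6 members higher and 1 lower, adding Alx4, Pbx3 and Prrx2, and the calls over all genes turned to 411 higher and 109 lower (2.38% and 0.630%, or 3.0% either way), against 114 higher and 208 lower with TMM. At an unadjusted p under 0.05, 10 members were higher and 1 lower, where 7.13% of all genes were higher and 7.83% lower. The libraries of the groups did not overlap for 14 of the 38, with mutants above for 11 and below for 3, where 10.6% of all genes lay above, 10.8% below and 21.3% either way. The median log2 fold change was 0.08 over the members and 0.01 over all genes. Of the members, 20 stayed within 0.2 of 0 on the log2 scale, and 61.0% of all genes did so.

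Prrx1 encodes a paired-related factor of craniofacial and limb mesenchyme. It stood at 84.7, 110 and 86.4 CPM in mutant replicates 3, 4 and 5, against 60.9, 53.5 and 55.9 CPM in control replicates 2, 3 and 5. Every mutant library lay above every control library, with replicate 4 the highest of the mutants. Means were 93.8 ± 14.2 CPM in mutants and 56.8 ± 3.79 CPM in controls (SD, n = 3 each), a log2 fold change of 0.72 (SE 0.11, adjusted p = 0.0299). The gene lies on the minus strand of chromosome 1 from 163245119 to 163313710 in mm10.

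Six2 encodes a sine oculis factor that keeps progenitors undifferentiated in the kidney and is made in head mesenchyme. Its level was 23.2, 25.9 and 22.9 CPM in mutant replicates 3, 4 and 5, against 15.2, 14.2 and 14.3 CPM in control replicates 2, 3 and 5. The libraries within each group lay close together and the groups did not overlap. Means were 24.0 ± 1.64 CPM in mutants and 14.6 ± 0.579 CPM in controls (SD, n = 3 each), a log2 fold change of 0.72 (SE 0.09, adjusted p = 0.0180). Six2 lies on the minus strand of chromosome 17 from 85684277 to 85688274.

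Phox2a encodes a paired-type factor known for specifying noradrenergic and cranial motor neurons. It stood at 14.6, 7.29 and 4.26 CPM in mutant replicates 3, 4 and 5, against 1.31, 2.25 and 1.20 CPM in control replicates 2, 3 and 5. All mutant libraries were above all control libraries, and the mutants spread more widely, relative to their mean, than those of the other 3 called members, with replicate 3 the highest. Means were 8.72 ± 5.32 CPM in mutants and 1.59 ± 0.576 CPM in controls (SD, n = 3 each), a log2 fold change of 2.45 (SE 0.48) with an adjusted p of 0.0499, just under the threshold. The call was lost under RLE scaling and without a filter on low counts (adjusted p = 0.0506 for both), on the authors' normalized table (0.0542) and with limma-voom (0.125). The gene lies on the plus strand of chromosome 7 from 101818313 to 101822726 and overlaps Inppl1 on the other strand, which stood at 142 ± 8.32 CPM in mutants and 141 ± 15.5 CPM in controls (SD, n = 3 each). No source used here states whether strand was kept in counting, and without strand the reads of the overlap cannot be assigned to either gene.

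Of 15 autonomic and sensory neuron markers, 13 were in the count table, and 9 of those, among them Dbh and Prph, stayed below 1 CPM in every library. Their summed level was 69.6 to 76.3 CPM in mutants and 58.0 to 64.7 CPM in controls, most of it Tubb3, and 0 of the 6 tested passed by edgeR or DESeq2, with 1 (Tubb3, log2 fold change 0.22) at an unadjusted p under 0.05. Th, the rate-limiting enzyme of catecholamine synthesis, stood at 1.70 to 1.80 CPM in mutants and 1.80 to 2.94 CPM in controls.

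Satb1 encodes a genome organiser with CUT domains and a homeodomain, best known in T cells and also made by ameloblasts. It stood at 215, 291 and 241 CPM in mutant replicates 3, 4 and 5, against 431, 449 and 557 CPM in control replicates 2, 3 and 5. Each mutant library was below each control library by a wide margin. Means were 249 ± 38.8 CPM in mutants and 479 ± 67.9 CPM in controls (SD, n = 3 each), a log2 fold change of -0.95 (SE 0.14, adjusted p = 0.0264). Satb1 lies on the minus strand of chromosome 17 from 51736187 to 51833290.

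**Figure D1:**
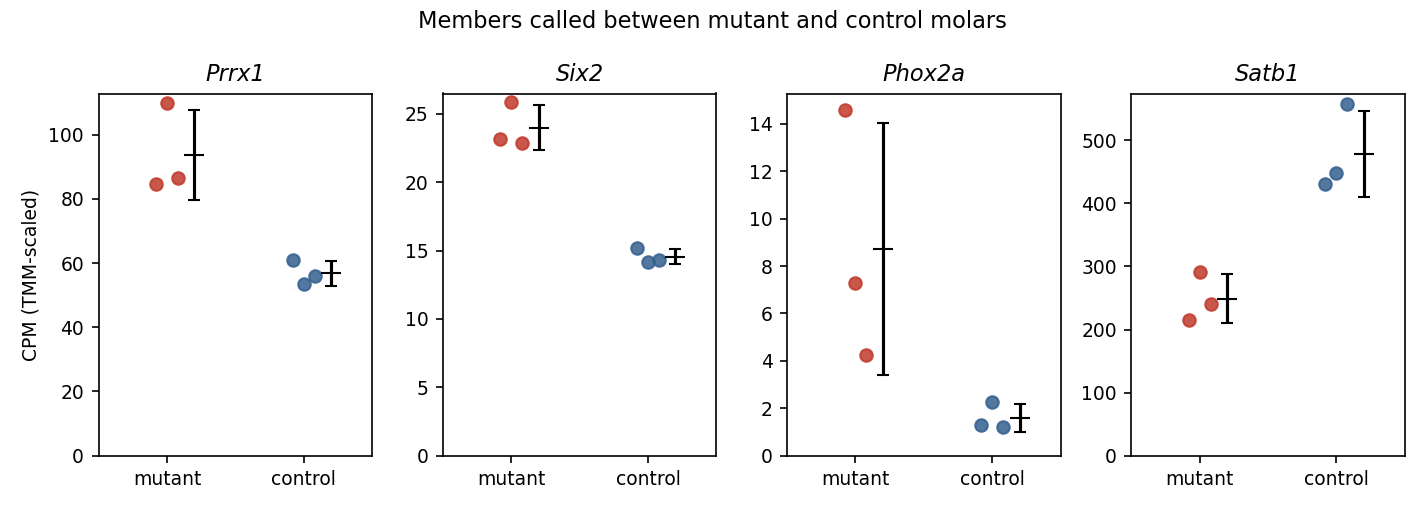
CPM of the 4 called members (vertical axes, each from 0) in the 3 mutant and 3 control libraries, with 1 point per library and the mean ± SD as a black bar. Groups do not overlap for any of the 4, and Phox2a has the widest spread among mutants, from 4.26 to 14.6 CPM.

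Markers of other cell types moved beside these calls. Of 12 dental epithelium and ameloblast markers, 2 fell (Amelx and Sp6), 0 rose and 10 did not pass, with a median log2 fold change of -0.44, and their summed level was 69212 to 114917 CPM in mutants and 180041 to 279195 CPM in controls. Within that list the secretory genes Amelx and Enam lay lower in all mutant libraries than in any control. The epithelial keratin Krt14 stood at 972, 744 and 512 CPM in mutant replicates 3, 4 and 5, against 628, 809 and 744 CPM in control replicates 2, 3 and 5, so its groups overlapped. Of 6 dental follicle and periodontal ligament markers, 2 rose (Postn and Igfbp3), 0 fell and 4 did not pass, and their summed level was 1690 to 1997 CPM in mutants and 1122 to 1352 CPM in controls. Summed levels did not overlap either for markers of osteoblasts (2942 to 3524 CPM in mutants and 2324 to 2844 CPM in controls), red blood cells (2366 to 5510 and 1423 to 1948 CPM), macrophages (272 to 351 and 200 to 242 CPM) and cycling cells (172 to 249 and 125 to 154 CPM). The same held for markers of endothelium (288 to 300 CPM in mutants and 241 to 283 CPM in controls), Schwann cells (26.6 to 31.0 and 23.1 to 24.9 CPM), and pericytes and smooth muscle (522 to 546 and 481 to 504 CPM), and for the neuron markers above, with mutants higher in each. Summed levels overlapped for markers of odontoblasts, osteoclasts and skeletal muscle. Single genes called in these lists were Cd68 (macrophage), Myh11 (smooth muscle) and Ccnb1 (cycling), which rose, and Wnt10a (odontoblast), which fell. Sp6 (adjusted p = 0.0499) and Cd68 (0.0498) were just under the threshold. With 1 library left out, Amelx, Sp6, Igfbp3 and Cd68 were called in 0 of 6 fits, Postn in 1 and Wnt10a in 3. The part of any of these cell types, neurons among them, in the Satb1, Prrx1, Six2 or Phox2a values was not tested.

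Each of these calls was lost in most fits that left out 1 library. Leaving out 1 library at a time, Six2 was called in 2 of 6 fits (adjusted p from 0.0315 to 0.0825), Satb1 in 2 (0.0420 to 0.0890), Prrx1 in 1 (0.0371 to 0.123) and Phox2a in 1 (0.0444 to 0.180). Signs held in all of these fits, with log2 fold changes of 0.66 to 0.76 for Six2, -1.07 to -0.82 for Satb1, 0.59 to 0.79 for Prrx1 and 1.85 to 2.80 for Phox2a. Without control replicate 2, 3 or 5, 0 members were called, and without mutant replicate 3 the gene Zfhx4 was called as well. Over all genes, 11, 33 and 38 were called without control replicate 2, 3 and 5, and 243 without mutant replicate 3. With all libraries 322 were called, so calls over all genes fell too in these smaller fits.

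The DNA just upstream of the annotated start of these 4 genes is shown. Which start is used in this tissue was not tested. The windows are RefSeq sequences of GRCm38.p6, read on the strand of the gene from 5′ to 3′, and they end at the start of the gene in GENCODE M21. For Prrx1 and Six2 the RefSeq start lies 60 and 20 bases further inside the gene. Capitals mark matches, on either strand, to TAATTA (the core that many homeodomains bind), TGACAG (bound by PKNOX and MEIS factors), GGGCGG (the GC box) and GACCACCCA (the GLI site).
Prrx1, chr1:163313711-163313900, minus strand: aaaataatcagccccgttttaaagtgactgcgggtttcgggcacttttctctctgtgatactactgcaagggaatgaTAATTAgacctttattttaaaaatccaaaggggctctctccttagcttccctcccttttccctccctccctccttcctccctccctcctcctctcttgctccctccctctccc
Six2, chr17:85688275-85688504, minus strand: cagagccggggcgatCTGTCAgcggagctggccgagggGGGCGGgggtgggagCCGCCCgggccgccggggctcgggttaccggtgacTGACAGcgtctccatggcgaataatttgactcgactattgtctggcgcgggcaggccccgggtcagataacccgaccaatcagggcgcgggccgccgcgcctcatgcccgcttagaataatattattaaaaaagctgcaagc
Phox2a, chr7:101818063-101818312, plus strand: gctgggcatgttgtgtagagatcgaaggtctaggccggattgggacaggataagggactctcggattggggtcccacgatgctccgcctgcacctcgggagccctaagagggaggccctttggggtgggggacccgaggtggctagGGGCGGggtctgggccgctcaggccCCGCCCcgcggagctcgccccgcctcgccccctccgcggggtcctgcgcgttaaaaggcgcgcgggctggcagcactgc
Satb1, chr17:51833291-51833540, minus strand: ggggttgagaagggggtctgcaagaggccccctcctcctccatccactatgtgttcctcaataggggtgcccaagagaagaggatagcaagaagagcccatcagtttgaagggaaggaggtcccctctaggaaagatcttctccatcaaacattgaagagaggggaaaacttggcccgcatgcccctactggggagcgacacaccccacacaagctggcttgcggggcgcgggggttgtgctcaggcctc

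The windows differed in make-up. The 190 bases before Prrx1 held 1 TAATTA, which 4.02% of all RefSeq promoter windows of that length hold, and 3 CpG dinucleotides at 48.9% G and C. The 230 bases before Six2 held 2 matches to TGACAG and 2 to the GC box, found in 14.8% and 29.8% of windows of that length, and 24 CpG. Before Phox2a, 250 bases held 2 GC boxes, a motif of 32.7% of windows, and 22 CpG at 70.4% G and C. The window at the outermost of 5 RefSeq starts of Satb1 held none of the 4 motifs and 5 CpG. The GLI site was in none of the 4 windows and is in 0.180 to 0.225% of all windows of these lengths. Such matches describe letters and do not show that a factor binds.

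**Figure D2:**
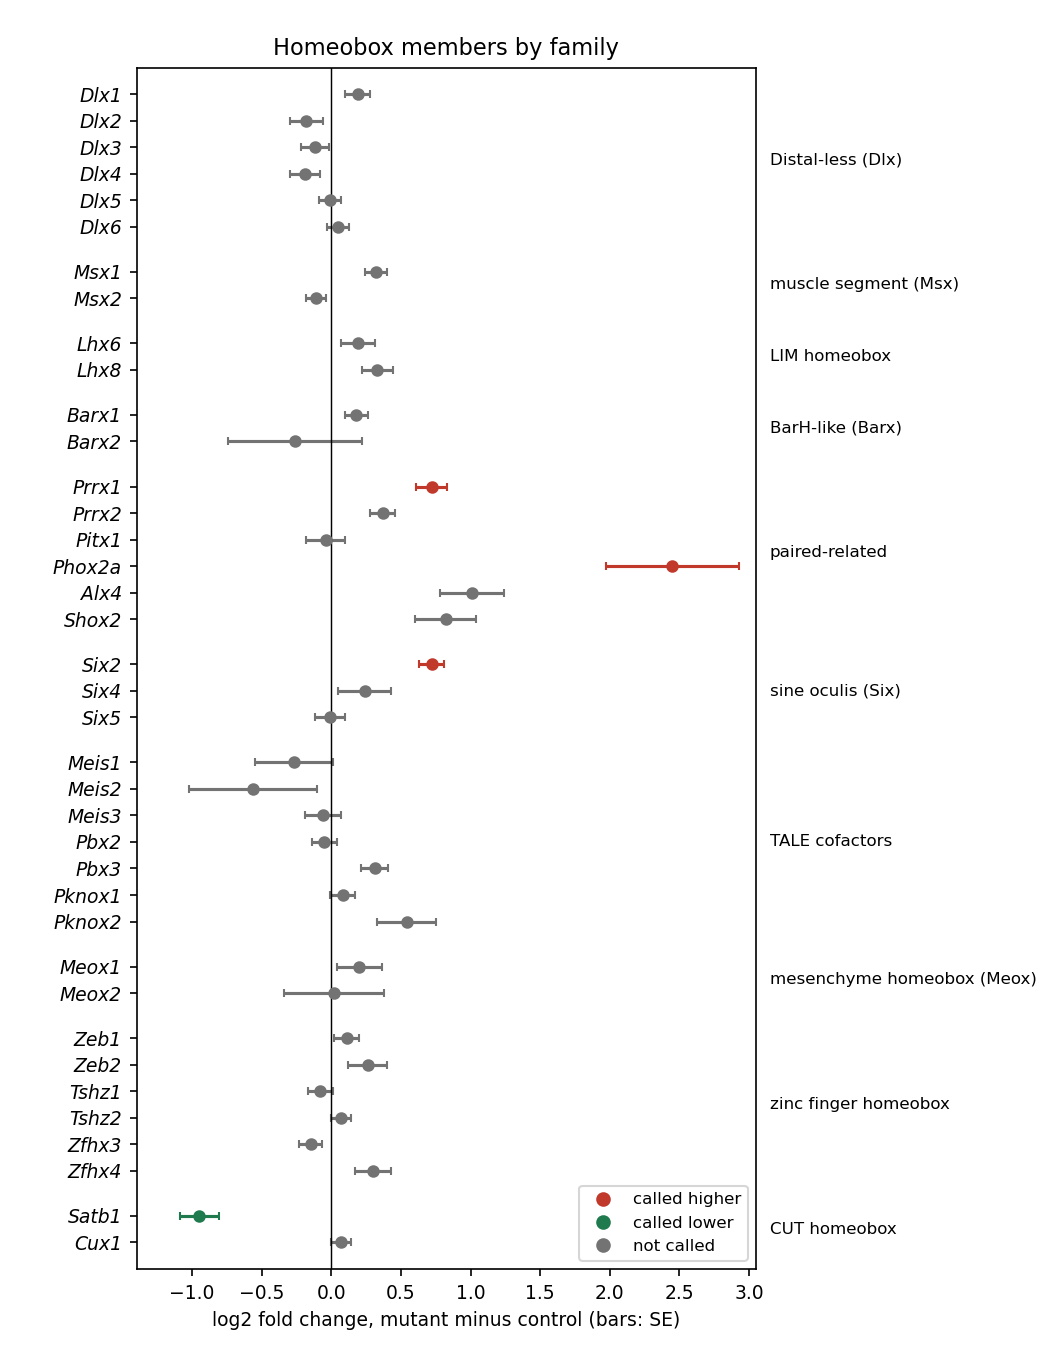
Log2 fold change, mutants minus controls, with its SE for each of the 38 members tested, grouped by family. Prrx1, Phox2a and Six2 are called higher and Satb1 lower, while the 6 Dlx genes lie between -0.19 and 0.19.

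Paired-related genes shape the skull, jaws and limbs. Of 6 tested, 2 rose, 0 fell and 4 did not pass, and 5 of 6 had all mutant libraries above all control libraries, where 10.6% of all genes did. Beside Prrx1 and Phox2a, Alx4, a regulator of limb and skull patterning, stood at 7.57, 8.20 and 5.49 CPM in mutant replicates 3, 4 and 5, against 4.04, 3.89 and 2.61 CPM in control replicates 2, 3 and 5 (log2 fold change 1.01, SE 0.23, adjusted p = 0.0773). Shox2, which is needed for palate and limb growth, stood at 19.2, 26.0 and 25.4 CPM in mutants, against 16.9, 13.7 and 9.25 CPM in controls (log2 fold change 0.82, SE 0.22, adjusted p = 0.115). Prrx2, the close paralogue of Prrx1, stood at 33.9, 37.9 and 38.7 CPM in mutants, against 28.7, 25.7 and 30.8 CPM in controls (log2 fold change 0.37, SE 0.09, adjusted p = 0.106). None of these 3 passed, although their groups did not overlap. More abundant genes overlap Alx4 and Shox2 on the other strand, Ext2 (106 ± 0.788 CPM in mutants and 104 ± 8.24 CPM in controls) over Alx4 and Rsrc1 (41.7 ± 2.11 and 39.6 ± 1.57 CPM, SD, n = 3 each) over Shox2, so the strand limit given for Phox2a holds here too. Pitx1, a hindlimb and jaw factor, was the exception, with overlapping values of 51.7 to 70.8 CPM in mutants and 58.9 to 76.3 CPM in controls.

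Dlx genes give the lower and upper jaw their identity and act in pairs that lie side by side in the genome. None of the 6 was called by edgeR or by DESeq2, 0 had an unadjusted p under 0.05, and in each of them the groups overlapped. The sign of 4 of the 6 turned under scaling to library totals. Dlx3, also needed for hair, enamel and dentin, was the most abundant at 385, 374 and 398 CPM in mutant replicates 3, 4 and 5, against 434, 461 and 361 CPM in control replicates 2, 3 and 5. Its log2 fold change was -0.12 (SE 0.10, adjusted p = 0.671). Dlx1 had the smallest p of the family, with 41.0, 47.4 and 48.2 CPM in mutants, against 42.2, 38.7 and 38.7 CPM in controls (log2 fold change 0.19, SE 0.09, adjusted p = 0.366). Dlx4 stood at 72.2, 76.9 and 90.4 CPM in mutants, against 89.8, 83.6 and 99.8 CPM in controls (log2 fold change -0.19, SE 0.11, adjusted p = 0.458). Dlx2 averaged 114 ± 15.4 CPM in mutants and 130 ± 13.3 CPM in controls, Dlx5 102 ± 9.03 and 103 ± 2.62 CPM, and Dlx6 38.0 ± 2.55 and 36.7 ± 1.82 CPM (SD, n = 3 each). Antisense genes overlap 3 of the 6, and their levels were of the same order for Dlx4 (Dlx4os, 46.5 ± 7.64 CPM in mutants and 57.8 ± 4.97 CPM in controls) and Dlx6 (Dlx6os1, 64.5 ± 12.8 and 76.6 ± 12.2 CPM, SD, n = 3 each), so the sense values are uncertain there.

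The Msx pair passes BMP signals on in the tooth germ. Msx1, needed for teeth to pass the bud stage, stood at 140, 128 and 147 CPM in mutant replicates 3, 4 and 5, against 117, 114 and 103 CPM in control replicates 2, 3 and 5 (log2 fold change 0.32, SE 0.08, adjusted p = 0.120). Msx2, which acts in crown and enamel formation, stood at 232, 223 and 221 CPM in mutants, against 241, 251 and 235 CPM in controls (log2 fold change -0.11, SE 0.07, adjusted p = 0.532). Neither passed, and the groups of neither gene overlapped, with Msx1 above and Msx2 below in mutants. Under scaling to library totals the Msx2 value was 0.10, so its sign depends on the scaling.

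Barx1, a marker of molar mesenchyme, was second to Dlx3 in level per length. It stood at 126, 123 and 138 CPM in mutant replicates 3, 4 and 5, against 118, 108 and 117 CPM in control replicates 2, 3 and 5 (log2 fold change 0.18, SE 0.08, adjusted p = 0.338). Barx2, more epithelial and muscular in other organs, was far lower, at 1.58 to 4.64 CPM in mutants and 1.65 to 4.82 CPM in controls. The LIM homeobox genes Lhx6 and Lhx8 are jointly needed for molars to form. Lhx8 stood at 16.5, 15.6 and 15.8 CPM in mutants, against 13.9, 13 and 11.2 CPM in controls, and did not pass (log2 fold change 0.33, SE 0.11, adjusted p = 0.206). Lhx6 stood at 31.6, 39.8 and 42.6 CPM in mutants, against 34.4, 30.9 and 34.5 CPM in controls, with overlapping groups (adjusted p = 0.514). Isl1, which is made in incisor epithelium and in neurons, was between 0.434 and 0.773 CPM in mutants and between 0.0973 and 0.375 CPM in controls and was not tested.

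Of the 3 sine oculis genes in the list, Six2 rose and the other two did not pass. Six4 stood at 7.42, 9.02 and 9.88 CPM in mutant replicates 3, 4 and 5, against 9.14, 7.40 and 5.71 CPM in control replicates 2, 3 and 5 (log2 fold change 0.24, SE 0.19, adjusted p = 0.635). Six5 stood at 31.1, 41.3 and 39.6 CPM in mutants, against 38.9, 37.2 and 36.4 CPM in controls (log2 fold change -0.01, SE 0.11, adjusted p = 0.983). Both had overlapping groups.

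TALE homeobox proteins bind DNA together with Hox, Dlx and other homeodomain partners. None of the 7 members was called by edgeR or by DESeq2. At an unadjusted p under 0.05, 2 were higher, where 7.13% of all genes were higher and 7.83% lower. Pbx3 stood at 19.9, 21.1 and 18.7 CPM in mutant replicates 3, 4 and 5, against 14.7, 16.0 and 17.5 CPM in control replicates 2, 3 and 5 (log2 fold change 0.31, SE 0.10, adjusted p = 0.199). Pknox2 stood at 6.34, 6.25 and 8.65 CPM in mutants, against 5.93, 3.93 and 4.68 CPM in controls (log2 fold change 0.54, SE 0.21, adjusted p = 0.259). These were the members of the family whose groups did not overlap, where 21.3% of all genes did not. Pbx2 was the most abundant, at 46.7, 49.6 and 53.6 CPM in mutants, against 50.6, 48.2 and 56.3 CPM in controls. Meis1 and Meis2, abundant in many proximal limb and head tissues, were low here, at 1.68 ± 0.359 and 0.346 ± 0.149 CPM in mutants and 2.03 ± 0.452 and 0.518 ± 0.161 CPM in controls (SD, n = 3 each). Meis3 and Pknox1 did not pass and had overlapping groups, with log2 fold changes of -0.06 and 0.08.

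Meox1 and Meox2, genes of somite and muscle mesenchyme, were low. Meox1 stood at 6.34, 5.86 and 4.96 CPM in mutant replicates 3, 4 and 5, against 4.47, 5.52 and 4.90 CPM in control replicates 2, 3 and 5, and Meox2 at 0.966, 1.21 and 0.615 CPM in mutants, against 1.17, 0.936 and 0.653 CPM in controls. Neither passed. The zinc finger homeobox genes, which include the repressors of epithelial genes Zeb1 and Zeb2, also gave 0 calls of 6 by edgeR and by DESeq2, and 0 had an unadjusted p under 0.05. Zfhx4 stood at 84.0, 116 and 119 CPM in mutants, against 90.6, 84.7 and 84.4 CPM in controls (log2 fold change 0.30, SE 0.13, adjusted p = 0.342), so that mutant replicate 3 lay below the controls and the other two above. Zeb2 stood at 111, 154 and 148 CPM in mutants, against 129, 110 and 105 CPM in controls (log2 fold change 0.26, SE 0.14, adjusted p = 0.429), with the same replicate the lowest mutant. Log2 fold changes of Zeb1, Tshz1, Tshz2 and Zfhx3 were 0.11, -0.08, 0.07 and -0.15. Cux1, the CUT homeobox gene beside Satb1 in the list, stood at 172, 184 and 175 CPM in mutants, against 174, 163 and 168 CPM in controls (log2 fold change 0.07, SE 0.07, adjusted p = 0.696).

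Levels per kilobase of exon allow members to be set beside each other. The length used is the union of all annotated exons, which makes the level of genes with long or rarely used exons, such as Prrx1, too low. On this scale Dlx3 led with 148 CPM per kb in mutants and 161 in controls, then came Barx1 (92.3 and 81.7) and Msx2 (68.6 and 73.9). Dlx5 had 45.1 CPM per kb in mutants and 45.3 in controls, Dlx2 40.0 and 45.4, and Msx1 44.8 and 36.0. The last 3 are neighbours in the order and changed places between the groups. Satb1 was 13th in mutants at 13.1 CPM per kb and 8th in controls at 25.2. At the bottom were Meis1, Isl1 and Meis2, each under 0.2 CPM per kb in both groups. Phox2a was 25th in mutants at 4.28 CPM per kb and 32nd in controls at 0.779.

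**Figure D3:**
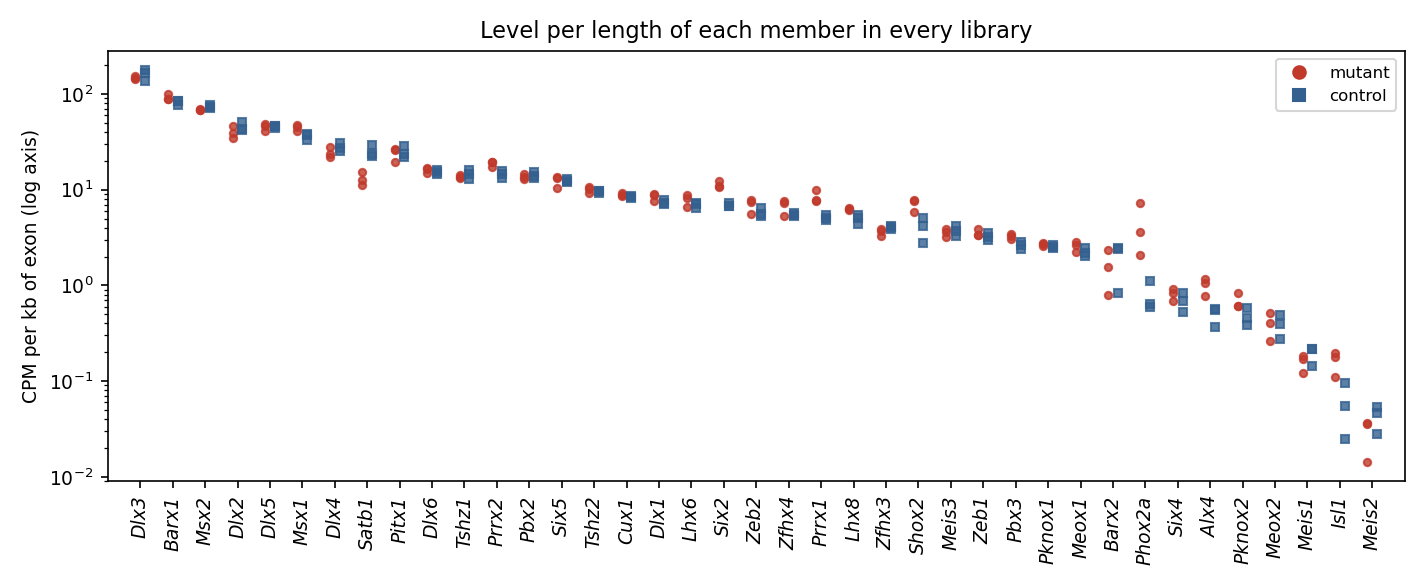
CPM per kb of exon (log axis) of the 39 members in each mutant library (circles) and control library (squares), ordered by the control mean. The order runs from Dlx3 at over 100 CPM per kb to Meis2 under 0.1, and Satb1, Phox2a, Six2 and Prrx1 are among the members whose groups do not overlap.

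Ratios between related genes within a library do not depend on how libraries are scaled to each other. For 7 pairs chosen after the values were seen, the groups did not overlap in 3. The exact two-sided permutation test of 3 against 3 libraries cannot go below 0.1, and these 3 pairs had an adjusted p of 0.233 over the 7. Msx1 lay above and Msx2 below the controls in all mutant libraries, so their ratio had to separate the groups. Prrx1 and Six2 were themselves called, so the 3 ratios are no separate evidence. The Msx1 to Msx2 ratio was 0.606, 0.575 and 0.667 in mutants, against 0.487, 0.455 and 0.437 in controls (exact p = 0.1). Prrx1 to Prrx2 was 2.50, 2.91 and 2.23 in mutants, against 2.12, 2.08 and 1.81 in controls (exact p = 0.1). Six2 to Six5 was 0.579 to 0.747 in mutants and 0.381 to 0.392 in controls (exact p = 0.1). The neighbouring Dlx pairs kept overlapping ratios. Dlx5 to Dlx6 was 2.68 ± 0.0639 in mutants and 2.80 ± 0.0860 in controls (SD, n = 3 each, exact p = 0.2), with 9236 bases between the genes.

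**Figure D4:**
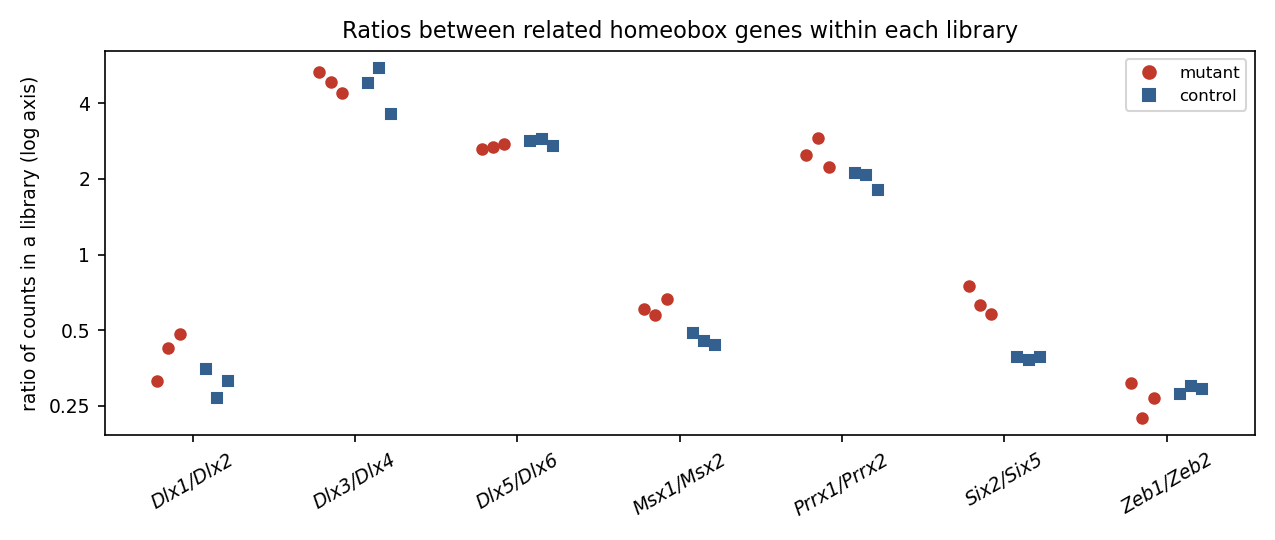
Ratio of counts between 2 related homeobox genes (log axis) in each mutant library (circles) and control library (squares). Msx1/Msx2 lies between 0.575 and 0.667 in mutants and between 0.437 and 0.487 in controls, while the Dlx ratios overlap.

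Other homeobox genes were followed to set the list in context. Of 177 further homeobox genes, 54 were in the count table and 43 were tested. Of these, 1 rose, 0 fell and 42 did not pass, with a median log2 fold change of 0.07. Over all genes, 0.659% were called higher and 1.20% lower. All 6 Hox genes present in the table were low, with 2.72 CPM (Hoxd8, mutant replicate 5) the highest value in any library, and 0 of the 3 tested passed, with unadjusted p under 0.05 in 0 and DESeq2 calls in 0. Mkx, a tendon factor, had a log2 fold change of 0.68 (adjusted p = 0.0957), and Zhx3 had a log2 fold change of -0.27 (adjusted p = 0.0989). Lmx1a (log2 fold change 1.29, adjusted p = 0.117), Hlx (0.61, 0.124), Hmbox1 (-0.22, 0.259) and Pou3f3 (0.88, 0.293) did not pass either.

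Signals and regulators that set the homeobox code were a second list of 26 genes, of which 23 were tested, 0 rose, 1 fell and 22 did not pass. Over all genes, 0.659% were called higher and 1.20% lower. At an unadjusted p under 0.05, 3 of the list were higher and 4 lower, where 7.13% of all genes were higher and 7.83% lower. DESeq2 called 3 higher and 2 lower, where it called 2.15% of all genes higher and 2.97% lower. Gli1, the Hedgehog target whose promoter names the Cre line, fell to 37.3 ± 3.96 CPM in mutants, against 88.6 ± 10.9 CPM in controls (SD, n = 3 each, adjusted p = 0.00753). The mutants alone carried Gli1-CreER, so effects of that allele and of Arid1a deletion on Gli1 cannot be told apart. Bmp4, which induces Msx1 in tooth mesenchyme, stood at 79.4 ± 17.2 CPM in mutants and 96.3 ± 7.18 CPM in controls (log2 fold change -0.28, adjusted p = 0.427). Fgf8, which induces Barx1 and Lhx genes in the early arch, was at 0.828 ± 0.118 CPM in mutants and 0.571 ± 0.187 CPM in controls. Inhba, the activin subunit made by dental mesenchyme, stood at 18.2 ± 3.73 CPM in mutants and 8.96 ± 2.64 CPM in controls (SD, n = 3 each, log2 fold change 1.02, adjusted p = 0.0895). Pax9 (log2 fold change 0.49, adjusted p = 0.114), Wnt4 (-0.48, 0.119), Ednra (0.43, 0.135), Gli2 (-0.39, 0.135) and Ptch1 (-0.43, 0.226) did not pass, and none of them changed sign under scaling to library totals.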

How the data were processed

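Estimated gene counts for 6 libraries (3 mutant, 3 control) were deposited by the authors (expected counts, which need not be whole). The submitters' processing notes name STAR 2.6.1d, Partek and mm10, without role or order; no source used here names the annotation. A second deposited table holds the authors' normalized signal, the expected count plus 1 times a factor per library, and served for 1 alternative. The genotype label gave the group and the title the replicate number. Counts were rounded. Genes passing filterByExpr (17305) were scaled by TMM and tested with edgeR 4.0.16 (R 4.3.3), quasi-likelihood F test, with Benjamini-Hochberg adjustment over all genes. Each SE was |log2 fold change|/√F. The script was tested on simulated data, where 17.9% of 1.5-fold, 61.6% of 2-fold and 90.6% of 4-fold changes were called. Unchanged genes made up 8.6% of the calls there. A gene that did not pass is therefore not shown to be unchanged. Gene ends and exon lengths came from GENCODE M21, whose name, chromosome and start matched every gene. Members and lists were chosen with earlier results of these data known. Values in every library are given for called members and, per family, for the 2 smallest p and the highest level, and those of other members were chosen after their values were seen. Alternatives were RLE, upper-quartile and library-total scaling, 2 filters, DESeq2 1.42.0, limma-voom (limma 3.58.1), the normalized table on log2(value + 1), a block on replicate number, a threshold of 0.1 and each library left out. Pairs of replicates differed by more than counting noise (chi-square per degree of freedom of 24.3 or more). Some genes of the comparison and marker lists entered the counts and are not reported here by name.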

Additional observations from a re-analysis of the deposited data

How the results depend on the processing

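The signs of the 4 called members were unchanged under all alternatives tried. Calls were less stable. With 1 library left out, 0 to 3 members were higher and 0 to 1 lower, 0 to 1 other homeobox genes were called, and over all genes 11 to 243 were called, 1 to 105 higher and 10 to 138 lower. Such fits have fewer samples. Library totals alone called 520 genes (411 higher, 109 lower), 6 members higher and 3 other homeobox genes, and the median of the members was 0.28, while that of all genes moved to 0.21 from 0.01. DESeq2 called 869 genes (365 higher, 504 lower), 6 members higher and 3 other homeobox genes. A threshold of 0.1 gave 672 genes (272 higher, 400 lower) and 3 other homeobox genes, and limma-voom called 0 other homeobox genes. Mutants and controls share the numbers 3 and 5, and no label says what the numbers mark. The deviations of same-numbered libraries correlated at 0.2 and -0.149. So few values cannot decide whether same-numbered libraries share a litter or a batch. The replicate block called 90 genes (19 higher, 71 lower), 1 member higher (Phox2a, adjusted p = 0.0410), 1 lower (Satb1) and 0 other homeobox genes, with Prrx1 at 0.106 and Six2 at 0.155. Control replicate 2 and mutant replicate 4 have no same-numbered library in the other group. The contrast of that fit therefore rests on replicates 3 and 5 alone. Of the 38 tested members, 13 reversed sign somewhere, none of them called. With library totals, log2 fold changes were 0.02 for Dlx2 and Dlx4, 0.08 for Dlx3, 0.20 for Dlx5, 0.10 for Msx2, 0.15 for Pitx1 and Meis3, 0.19 for Six5, 0.16 for Pbx2, 0.13 for Tshz1 and 0.05 for Zfhx3. With upper-quartile factors Dlx5 and Six5 were at 0.01, on the normalized table Dlx5 was at 0.00, and Meox2 was at -0.01 with limma-voom and with the block. With 1 library left out, ranges that crossed 0 were -0.06 to 0.06 for Dlx5, -0.68 to 0.05 for Barx2, -0.12 to 0.09 for Pitx1, -0.09 to 0.11 for Six5, -0.14 to 0.03 for Meis3, -0.10 to 0.02 for Pbx2, -0.21 to 0.24 for Meox2 and -0.15 to 0.01 for Tshz1. The cause was not tested. Members near or under 1 CPM, such as Meis2 and Isl1, rest on few counts.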
